A study of Mus musculus with 6 samples.

Results

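Cxcl11, Ccl22 and Cx3cl1 are 3 mouse chemokine genes whose reads could each be assigned to a row of its own in the count tables of 6 tumours. They are 3 of 9 chemokine ligand genes with such a row, of 40 ligand genes looked for, and 3 of 10773 genes of any kind with such a row, of which 4577 held enough counts to be tested. They were selected on earlier results of the same contrast that is described here, so their own levels and fold changes are given as a description, with no test. A gene was given a row where the intervals listed for that row cover at least 50 bp of exon of a single gene of the GENCODE M21 annotation (GRCm38 build), and the row with most counts was used. Among rows of chemokine and chemokine receptor genes, those nearest this minimum were the rows of Ccl9 and Cxcr1, each with 88 bp. No such row lay below it.

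LG1233-OVA is a murine lung cancer cell line that carries ovalbumin, a model antigen. Cells of stable lines, either sgNT (a non-targeting guide, labelled WT and control) or sgUhrf1 (CRISPR/Cas9 against Uhrf1, labelled Uhrf1 knockout), were placed under the skin of female C57BL/6 mice, 1000000 cells each, and the tumours were taken on day 27. There were 3 tumours in each group, and poly(A) RNA of the whole tumour was sequenced in read pairs. The labels give no age of the mice, number of clones or cut site of the guide, and both groups carry ovalbumin and grew in hosts with an intact Uhrf1 gene. The labels call the tumours biological replicates without naming separate cultures, so a p-value measures the spread between these tumours. RNA came from cancer and host cells together, so a higher level from more cells of a type and from more RNA per cell cannot be told apart.

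Chemokines are small secreted proteins that bind receptors on leukocytes and steer their movement. They are classed by the spacing of the first cysteines of the mature protein: adjacent in the CC class, parted by a single residue in the CXC class and by 3 residues in the CX3C class. Cxcl11 is a ligand of the receptor Cxcr3 of activated T and NK cells, is induced by interferons and shares this receptor with Cxcl9 and Cxcl10. Ccl22 is made mainly by dendritic cells and macrophages and attracts cells with the receptor Ccr4, regulatory T cells among them. Cx3cl1, or fractalkine, is made as a membrane protein on a mucin stalk by endothelial, epithelial and neuronal cells, is shed by proteases and binds Cx3cr1 on monocytes, macrophages and lymphocytes.

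The class of each gene can be read from its coding sequence. The stretches below, taken from GENCODE M21 transcripts (GRCm38) and written 5′ to 3′, hold the first cysteine codons of the mature chemokine in capitals with 5 codons on each side, and show why the genes belong to 3 different classes.
Cxcl11: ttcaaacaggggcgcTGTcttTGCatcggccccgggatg
Ccl22: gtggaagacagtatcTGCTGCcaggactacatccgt
Cx3cl1: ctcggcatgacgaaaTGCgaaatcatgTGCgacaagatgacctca
In Cxcl11 the capitals are codons 29 and 31, with 1 codon between them. In Ccl22 they are codons 36 and 37, with 0 codons between. In Cx3cl1 they are codons 32 and 36, with 3 codons between. The coding regions hold 300 bases in Cxcl11, 279 in Ccl22 and 1188 in Cx3cl1, whose extra length encodes the stalk, the membrane segment and the inner tail.

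Cxcl11 needs a second look at sequence, because C57BL/6 mice are known to carry a broken reading frame in this gene. M21 lists Cxcl11 (ENSMUSG00000060183.6, chr5:92359544-92365485, minus strand) as a polymorphic pseudogene. It gives 2 models of the coding part of the first exon, both at chr5:92363155-92363214, and these are shown because their difference decides whether the counted RNA has an open frame. Capitals mark the 2 genomic bases, 92363177 to 92363178, that the protein-coding model leaves out.
Cxcl11-202 (pseudogene model): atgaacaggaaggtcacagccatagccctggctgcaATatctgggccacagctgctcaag
Cxcl11-201 (protein-coding model): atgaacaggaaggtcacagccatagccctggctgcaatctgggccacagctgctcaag
The pseudogene model follows the reference genome base for base, holds 302 coding bases and meets its first stop at codon 37. The protein-coding model holds 300 coding bases and ends at codon 100. Both give reads in the same intervals, so the counts below measure Cxcl11 RNA and say nothing about protein. The labels do not name the strain from which the LG1233-OVA cells derive.

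Promoter sequence was at hand for Ccl22 and Cx3cl1, from RefSeq (GRCm38.p6), as 250 bases before and 50 after the start given there. That start need not be the M21 start of the gene. The stretches shown are only part of each window, 156 bases for Ccl22 and 79 for Cx3cl1. They lie directly before the M21 start on the plus strand. They hold 5 and 2 CG dinucleotides, the sites of DNA methylation, in capitals, since Uhrf1 is known for its part in keeping this mark. No methylation was measured here.
Ccl22 (chr8:94745434-94745589): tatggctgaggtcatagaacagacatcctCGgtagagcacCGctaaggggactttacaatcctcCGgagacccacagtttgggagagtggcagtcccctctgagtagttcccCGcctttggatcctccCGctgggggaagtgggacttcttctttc
Cx3cl1 (chr8:94771930-94772008): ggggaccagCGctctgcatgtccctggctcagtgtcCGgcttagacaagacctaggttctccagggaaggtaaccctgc
Over all 300 bases the Ccl22 promoter held 8 CG dinucleotides, and 51.4% of 32851 RefSeq mouse promoters held fewer. The Cx3cl1 promoter held 19, and 71.9% held fewer. GC content was 53.3% in Ccl22 and 64.7% in Cx3cl1. Letter patterns of 3 kinds were then searched on both strands: GAAANNGAA for interferon-stimulated response elements, TTCNNNGAA for gamma-activated sites, and the NF-kB consensus. No match to these 3 patterns stood in either window, while 8.56%, 8.30% and 8.46% of all promoters held them, and 6, 2 and 8 of 35 chemokine ligand promoters did. These letters are absent from these windows, which says nothing about binding of the factors.

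The row names of the deposited tables do not tell which gene a row holds, because they come from an annotation of the GRCm39 build while the reads were placed on GRCm38. Cxcl11 stands in the row listed as U90926, where the counted intervals span 800 bp. Of these, 507 bp are exon of Cxcl11, 13.4% of its 3794 bp of exon: 113 bp of exon 1 (60 coding and 53 of 5′ UTR) and 394 bp of exon 4, all 3′ UTR. Art3, an ADP-ribosyltransferase gene on the plus strand (chr5:92331827-92414628), spans the whole of Cxcl11, and the counting used no strand, so reads of Art3 introns inside these intervals cannot be told apart from Cxcl11 reads. Ccl22 (ENSMUSG00000031779.3, chr8:94745590-94751699, plus strand) stands in the row listed as Nudt21, with 5350 bp of intervals. That row takes all 197 bp of exon 1 and 76 bp of exon 3 (3′ UTR), 11.7% of the exon length, along with 847 bp of intron and 4230 bp outside the gene. Cx3cl1 (ENSMUSG00000031778.13, chr8:94772009-94782427, plus strand) stands in the row listed as Ogfod1, with 5846 bp of intervals. It covers 600 bp of exon, 15.3% of the gene: 532 bp of 3′ UTR in exon 3, 68 bp from exons of other transcripts and 0 coding bases, with 5166 bp outside the gene. The values therefore sample a part of each gene, and a change in which 3′ UTR or exon is used would not be separated from a change in level.

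**Figure D1:**
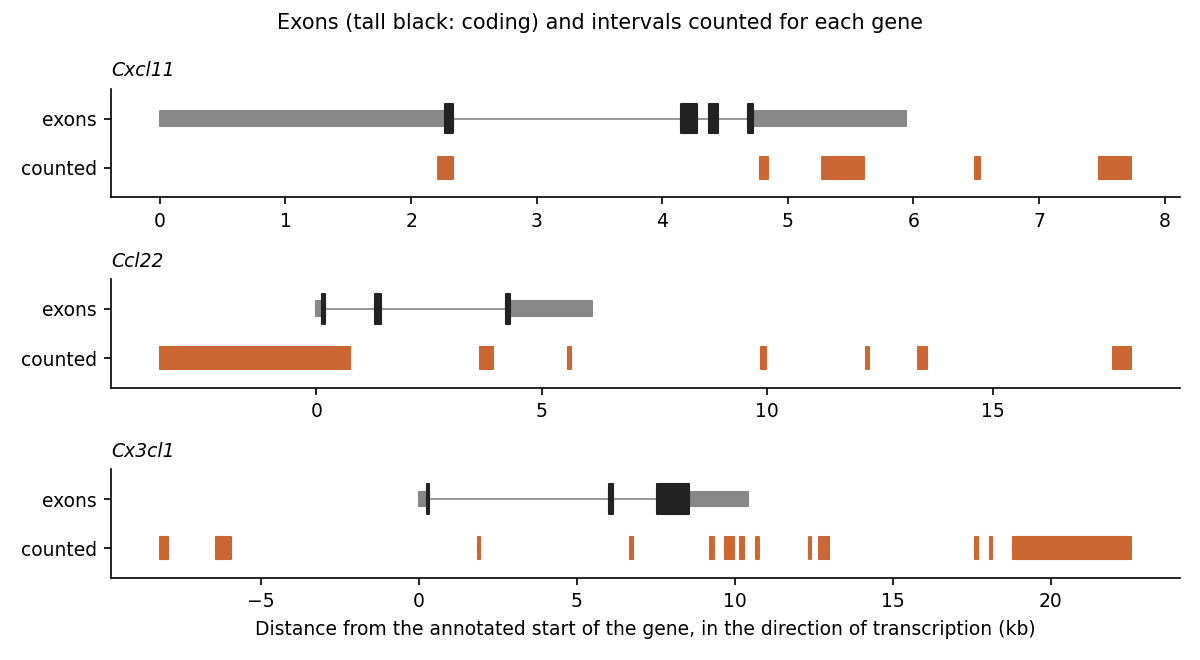
Exons of each gene (upper track, tall black blocks coding, grey blocks untranslated) and the intervals counted for its row (lower track, orange), by distance in kb from the annotated start in the direction of transcription. Only a part of each gene is counted: 507 bp of exon in Cxcl11, 273 bp in Ccl22 and 600 bp in Cx3cl1, and most of the counted length of the Ccl22 and Cx3cl1 rows lies outside the gene.

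The rows that carry the members' names in the files hold other sequence. The row named Cxcl11 covers no M21 exon and held 1, 0 and 0 counts in sgNT replicates 1 to 3 and 1, 8 and 5 in sgUhrf1 replicates 1 to 3. The row named Ccl22 covers 102 bp of Csnk2a2, a casein kinase subunit gene, and held 90, 106 and 126 counts in sgNT and 56, 63 and 43 in sgUhrf1 tumours. Its log2 fold change was -0.83 ± 0.29 (SE, edgeR quasi-likelihood test, adjusted p = 0.0452), so reading the table by name would give Ccl22 the opposite direction. The row named Cx3cl1 covers 4933406B17Rik and held 0 counts in all 6 tumours.

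Each tumour gave 5462555 to 6375069 counts, and 3 counts, taken here as an approximate upper limit for an observed 0, equal 0.445 to 0.660 CPM (counts per 1000000 TMM-scaled counts). Such limits cover counting error only. Uhrf1 itself stood at 133, 136 and 98.2 CPM in sgNT tumours against 121, 73.0 and 89.9 CPM in sgUhrf1 tumours, which overlap (log2 fold change -0.37 ± 0.23, edgeR adjusted p = 0.227). The labels name no cut site, an edited gene can still be transcribed, and host cells keep an intact copy, so the labels cannot be checked by this level. Of 10503 tested rows, 2121 (20.2%) were higher and 2066 (19.7%) lower in sgUhrf1 tumours at an adjusted p under 0.05 in edgeR's quasi-likelihood test. Of the 4577 genes tested, 945 (20.6%) were higher and 985 (21.5%) lower, with a median log2 fold change of -0.0043. Skeletal muscle markers were far above the other tumours in sgNT replicate 2 and sgUhrf1 replicate 1, at 458 and 378 summed CPM against 2.66 to 22.5. Calls of named genes with a row of their own that are lost without both of these tumours are given beside the gene. Calls of single shared rows, and of the row that covers Csnk2a2, were not followed in that fit. Whether they hold without these tumours is not known.

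All 3 chemokine genes stood higher in every sgUhrf1 tumour than in any sgNT tumour. This held for Cxcl11 from a level close to 0, for Ccl22 from a low level and for Cx3cl1 from a level that was already high in the row used. No test is drawn from it, since the genes were selected on this contrast, in which 20.6% of all tested genes were called higher. That share is of calls. The share of all genes whose groups lie apart in this way is another measure and was not counted. Irf2, for one, stood higher in every sgUhrf1 tumour than in any sgNT tumour and was not called.

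Cxcl11, the interferon-induced CXC ligand, held 6, 3 and 8 counts in sgNT replicates 1, 2 and 3, which are 0.950, 0.445 and 1.42 CPM. In sgUhrf1 replicates 1, 2 and 3 it held 386, 249 and 522 counts, which are 68.3, 39.5 and 114.8 CPM. The sgNT tumours held few counts, and sgNT replicate 2 held no more than the 3 counts taken as the limit for an observed 0. The lowest sgUhrf1 tumour is 27.9 times the highest sgNT tumour. The group means were 0.938 ± 0.487 CPM (SD, n = 3) and 74.2 ± 38.0 CPM (SD, n = 3). The fitted log2 fold change was 6.30 ± 0.53 (SE), a 78.9-fold difference, and it ran from 5.84 to 6.70 as each tumour was left out in turn. The size of the fold rests on 17 counts in the sgNT group, so it is less well fixed than the 2 levels. Art3, whose introns overlap the intervals, had 2.01 ± 1.02 CPM in sgNT tumours against 7.14 ± 4.54 CPM in sgUhrf1 tumours (SD, n = 3) over 286 bp of its own exons; its part in the Cxcl11 row was not tested.

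Ccl22, the CC ligand of Ccr4, held 24, 31 and 22 counts in sgNT replicates 1, 2 and 3, or 3.80, 4.60 and 3.90 CPM. The sgUhrf1 tumours held 235, 216 and 379 counts, or 41.6, 34.3 and 83.3 CPM. The sgNT tumours lie within 1.21-fold of each other, while the sgUhrf1 tumours spread over 2.43-fold with replicate 3 on top. The lowest sgUhrf1 tumour is 7.46 times the highest sgNT tumour. Group means were 4.10 ± 0.433 CPM and 53.1 ± 26.5 CPM (SD, n = 3). The log2 fold change was 3.68 ± 0.38 (SE), a 12.8-fold difference, and was 3.20 without sgUhrf1 replicate 3. The value counts intron and flanking sequence too, so unspliced RNA and reads from beyond the gene enter it.

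Cx3cl1, the membrane-bound chemokine, held 377, 614 and 585 counts in sgNT replicates 1, 2 and 3, or 59.7, 91.0 and 103.7 CPM. The sgUhrf1 tumours held 885, 1497 and 784 counts, or 156.7, 237.6 and 172.4 CPM. The groups are apart by a narrow margin, with the lowest sgUhrf1 tumour at 1.51 times the highest sgNT tumour. Group means were 84.8 ± 22.6 CPM and 188.9 ± 42.9 CPM (SD, n = 3). The log2 fold change was 1.16 ± 0.25 (SE), a 2.23-fold difference, with 0.93 to 1.31 as each tumour was left out. A second row, listed as Gm45873 and covering 117 bp of Cx3cl1 exon, held 11, 4 and 6 counts in sgNT and 6, 23 and 7 in sgUhrf1 tumours. Those groups overlap, and its counts were too few for the filter.

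**Figure D2:**
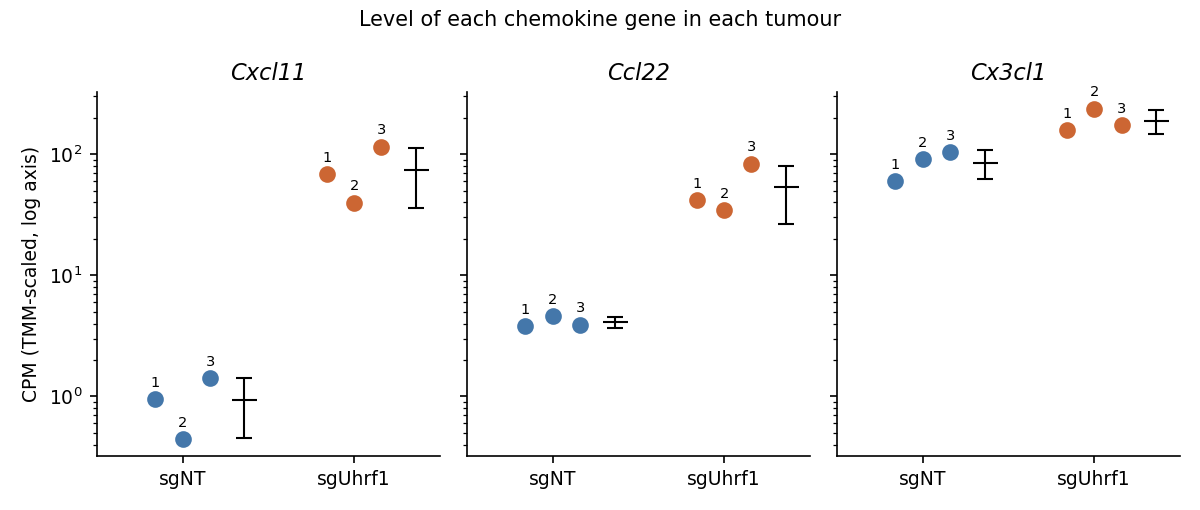
Level of each gene in each tumour, in CPM on a log axis, with the replicate number at each point and the mean ± SD of the group as a bar to the right. The sgUhrf1 points lie above all sgNT points in every panel, by 27.9 times in Cxcl11, 7.46 times in Ccl22 and 1.51 times in Cx3cl1 from the nearest points.

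Levels of different genes were compared per kb of exon counted. This divides all counts of a row by its exon length, although most of the counted length of the Ccl22 and Cx3cl1 rows is not exon, so reads from intron or flanking sequence would raise these values. In sgNT tumours the level per kb was 141 ± 37.7 CPM for Cx3cl1, 15.01 ± 1.59 CPM for Ccl22 and 1.85 ± 0.960 CPM for Cxcl11 (SD, n = 3). The order Cx3cl1, Ccl22, Cxcl11 held in each of the 3 sgNT tumours with no overlap between neighbours. It rests on the rows used. The second Cx3cl1 row, with 117 bp of exon, held only 1.74, 0.593 and 1.06 CPM in sgNT replicates 1 to 3. That row does not bear out a Cx3cl1 level far above Ccl22. In sgUhrf1 tumours the levels per kb were 315 ± 71.5 CPM for Cx3cl1, 194 ± 96.9 CPM for Ccl22 and 146 ± 74.9 CPM for Cxcl11. There neighbours in the order overlap: Ccl22 ran from 126 to 305 and Cxcl11 from 78.0 to 226 CPM per kb, and Cx3cl1 from 261 to 396.

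Within a tumour, the level per kb of Cx3cl1 was 53.1, 172.9 and 61.8 times that of Cxcl11 in sgNT replicates 1 to 3, and 1.94, 5.08 and 1.27 times in sgUhrf1 replicates 1 to 3. Over Ccl22 it was 7.15, 9.01 and 12.1 times in sgNT and 1.71, 3.15 and 0.941 times in sgUhrf1 tumours. Both ratios were smaller in every sgUhrf1 tumour than in any sgNT tumour, still well above 1 in sgUhrf1 replicate 2, and in sgUhrf1 replicate 3 the Ccl22 level per kb passed that of Cx3cl1. The ratio of Ccl22 to Cxcl11 was 7.43, 19.2 and 5.11 in sgNT and 1.13, 1.61 and 1.35 in sgUhrf1 tumours. Among the sgUhrf1 tumours Cxcl11 and Ccl22 share an order, highest in replicate 3 and lowest in replicate 2. Cx3cl1 is highest in replicate 2.

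Cell type markers were read beside these levels. T and NK cell markers, such as the T cell kinase gene Lck and the CD8 chain gene Cd8b1, had a row in 7 of 18 genes, and all 5 tested were higher, against 20.6% of all genes, with log2 fold changes of 3.29 ± 0.62 for Lck and 3.76 ± 0.51 for Cd8b1 (SE, edgeR adjusted p = 0.00353 and 0.000839). Their summed level ran from 10.97 to 28.5 CPM in sgNT tumours against 107 to 269 CPM in sgUhrf1 tumours. Within the sgUhrf1 group it was 160, 107 and 269 CPM in replicates 1, 2 and 3, the same order as Cxcl11 and Ccl22. The part of these cells in the chemokine levels was not tested.

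Dendritic cell markers had a row in 5 of 14 genes and 3 were tested. Itgax, the integrin chain CD11c, was higher by 2.15 ± 0.29 (SE, edgeR adjusted p = 0.000794), Wdfy4, a gene of antigen cross-presentation, was lower, at -1.89 ± 0.57 (adjusted p = 0.0270), and Itgae was not called, beside 20.6% higher and 21.5% lower over all genes. Wdfy4 did not keep its call in fits that left out sgNT replicate 2 or 3, sgUhrf1 replicate 2 or 3 or both muscle-rich tumours (-2.18 to -1.52), or in limma-voom (-1.74). The sum ran from 16.3 to 23.3 CPM in sgNT tumours against 55.9 to 92.4 CPM in sgUhrf1 tumours, mostly from Itgax. Flt3, the receptor that marks dendritic cells and their precursors, held 0 counts in 5 tumours and 2 in sgUhrf1 replicate 2, and Zbtb46, a dendritic cell transcription factor, 0 to 6 counts. Macrophage and monocyte markers, with a row in 7 of 14 genes, had 0 higher and 1 lower of 6 tested, beside 20.6% and 21.5% of all genes. The lower gene, Mertk, a receptor for the uptake of dead cells, covers 54 bp and lost its call without sgNT replicate 1, 2 or 3, sgUhrf1 replicate 1 or both muscle-rich tumours, at -1.99 to -1.49, and with median-of-ratios factors, at -1.63. The sum of the macrophage and monocyte markers was 218 to 312 CPM in sgNT tumours. In sgUhrf1 replicates 1, 2 and 3 it was 451, 154 and 528 CPM, of which C1qc alone gave 386, 136 and 448 CPM. By this sum, mostly of C1qc, sgUhrf1 replicate 2, lowest for Ccl22 and Cxcl11 in its group, was below every sgNT tumour. The part of dendritic cells and macrophages in the Ccl22 level was not tested.

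For Cx3cl1, epithelial and endothelial markers bear on the cells known to make it. Epithelial markers had a row in 3 of 10 genes, and both tested were higher, against 20.6% of all genes, the E-cadherin gene Cdh1 by 2.53 ± 0.29 and the keratin gene Krt7 by 3.55 ± 0.66 (SE, edgeR adjusted p = 0.000408 and 0.00347). Of 6 shared rows with an epithelial marker, 3 were higher, against 20.2% of all rows. The 3 not called were those of Cdh1 with 1110028F18Rik (0.44 ± 0.43) and with Tango6 (0.70 ± 0.39) and that of Krt8 with Gm36026 (0.55 ± 0.32). The sum over genes with a row of their own ran from 155 to 436 CPM in sgNT tumours. It was 1681, 2811 and 2106 CPM in sgUhrf1 replicates 1, 2 and 3, the same order as Cx3cl1 in CPM. For Cx3cl1 the order of replicates 1 and 3 rests on the TMM scaling, as they held 885 and 784 counts. Endothelial markers had a row in 5 of 9 genes and 0 of 4 tested were called, with 2 at an unadjusted p under 0.05. Their sum, 57.6 to 117.5 CPM in sgNT tumours against 63.5 to 113.7 CPM in sgUhrf1 tumours, overlapped between groups. Emcn, an endothelial sialomucin gene, held 0 counts in 4 tumours and 1 in each of the other two. Neuronal markers had a row in 2 of 9 genes, and the 1 tested, Map2, was lower, at -1.47 ± 0.44 (adjusted p = 0.0262), a call lost without sgNT replicate 2 or 3 or sgUhrf1 replicate 2 or 3, at -1.56 to -1.08. The sum was 10.3 to 25.0 CPM in sgNT tumours against 4.62 to 10.4 CPM in sgUhrf1 tumours. Those ranges barely overlap. The part of these cells in the Cx3cl1 level was not tested.

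B cell markers had a row in 2 of 7 genes and 0 of 1 tested was called. Their sum was 0.445 to 71.1 CPM in sgNT, where Ms4a1 held 329 counts in replicate 3 alone, and 7.26 to 11.3 CPM in sgUhrf1 tumours. Fibroblast markers had a row in 7 of 10 genes, with 1 higher (Thy1) and 1 lower (Pdgfra) of 6 tested, beside 20.6% and 21.5% of all genes. The call of Thy1 was lost in each fit that left out a tumour except sgUhrf1 replicate 2, at 0.54 to 0.75, and without both muscle-rich tumours, at 0.66. That of Pdgfra was lost without sgNT replicate 2, at -1.55, and without both muscle-rich tumours, at -1.90. The fibroblast sum was 5998 to 9904 CPM in sgNT tumours against 5942 to 16264 CPM in sgUhrf1 tumours. Neither sum separated the groups. Skeletal muscle markers had a row in 4 of 13 genes, with 0 of 2 tested called. Without both muscle-rich tumours the log2 fold changes of the chemokine genes were 6.00 for Cxcl11, 3.92 for Ccl22 and 1.32 for Cx3cl1, close to those with them.

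**Figure D3:**
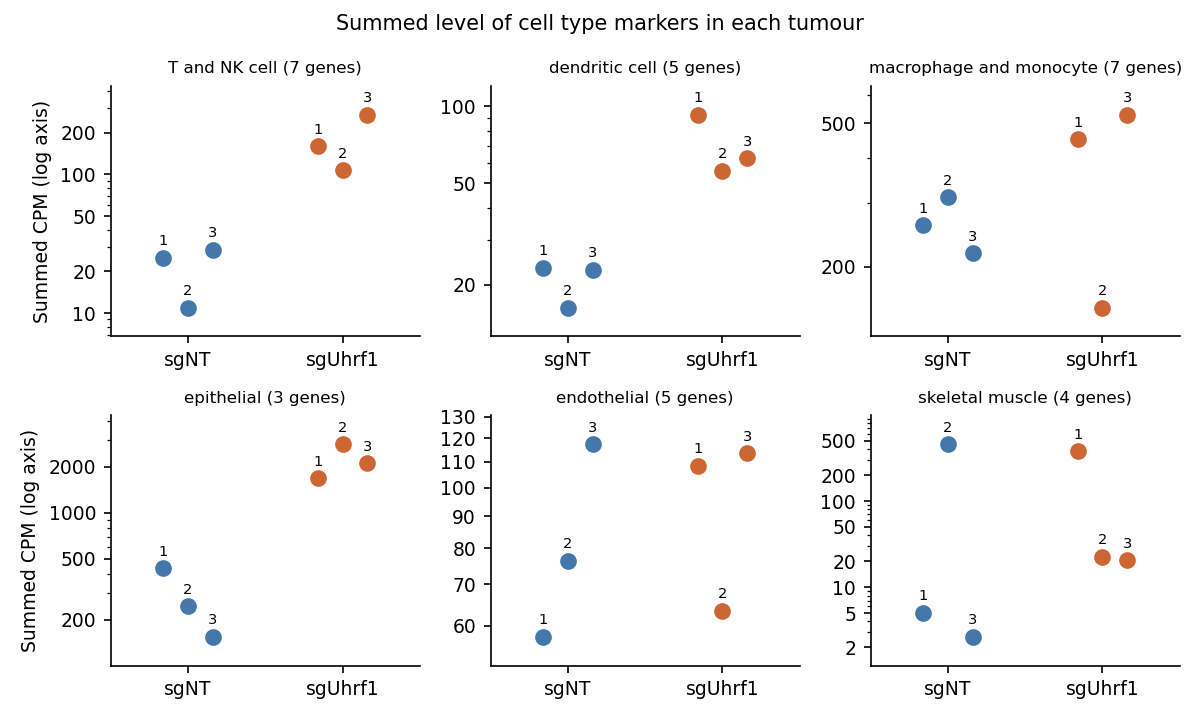
Summed level of the marker genes with a row of their own, in CPM on a log axis, by tumour, with replicate numbers; each panel has its own range. T and NK cell, dendritic cell and epithelial sums lie apart between groups, macrophage and endothelial sums overlap, and muscle is high in sgNT replicate 2 and sgUhrf1 replicate 1.

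Other chemokine ligands could be followed in few rows. Of 37 ligand genes besides the 3, 6 had a row of their own and 1 was tested: Ccl9, a CC ligand of myeloid cells, with 19.0, 35.7 and 14.9 CPM in sgNT tumours against 20.4, 12.4 and 88.4 CPM in sgUhrf1 tumours. Its groups overlap, with sgUhrf1 replicate 3 standing apart, and it was not called (log2 fold change 0.79 ± 0.66, edgeR adjusted p = 0.370). Without sgUhrf1 replicate 3 the estimate was -0.51. Ccl21a, Ccl19 and Ccl28 held 18, 11 and 5 counts over the 6 tumours, and Ccl21b and Ccl27b held 0. With 1 ligand tested, 0 called higher cannot be read against the 20.6% of all genes.

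Further ligands lay in rows shared with other genes, where the source of the reads is not known. The row of Sdad1, Art3, Cxcl9 and Cxcl10, which takes 179 and 108 bp of exon from the 2 other Cxcr3 ligands, went from 22.4 ± 4.94 to 258 ± 104 CPM (SD, n = 3). Its log2 fold change was 3.52 ± 0.31 (SE, edgeR adjusted p = 0.000148). Sdad1 and Art3 also have rows of their own, at -0.04 ± 0.27 and 1.80 ± 0.58. The row of Cxcl3 and Ppbp, both ligands of neutrophil receptors, was higher by 3.25 ± 0.37 (adjusted p = 0.000407). That of Ccl3, a CC ligand of macrophages and T cells, and the pseudogene Rpl9-ps1 was higher by 3.00 ± 0.49 (adjusted p = 0.00182). Of 2 rows that join Ccl27a and Il11ra1, 1 was higher, at 1.27 ± 0.38 (adjusted p = 0.0252), and in it Ccl27a has only 8 bp. Counting shared rows, 4 of 6 ligand rows were higher and 0 lower, against 20.2% and 19.7% of all rows.

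Receptors were sparse. None of the 5 receptors of the 3 chemokines (Cxcr3 and the scavenger Ackr3 for Cxcl11, Ccr4 and the scavenger Ackr2 for Ccl22, Cx3cr1 for Cx3cl1) had a row of its own, and their levels were not analysed here. Of all 25 receptor genes looked for, 4 had a row and 2 were tested. Ccr2, the receptor of inflammatory monocytes, held 169, 226 and 98 counts in sgNT replicates 1 to 3 and 181, 47 and 113 in sgUhrf1 replicates 1 to 3. The groups overlap, with sgUhrf1 replicate 2 lowest, and the log2 fold change was -0.28 ± 0.47 (SE, edgeR adjusted p = 0.674). At this depth 0 of 2 receptors was called, and 0 had an unadjusted p under 0.05. Ccrl2 and Cxcr1 held 15 and 0 counts in all.

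Proteases trim or shed chemokines: Dpp4 clips Cxcl11 and Ccl22 at the amino end, Adam17 sheds Cx3cl1, and cathepsin S (Ctss) can cleave fractalkine. Of 7 such genes, 3 were tested. Ctss went from 237 ± 49.5 to 646 ± 242 CPM (SD, n = 3), a log2 fold change of 1.44 ± 0.29 (SE, edgeR adjusted p = 0.00481), over 166 bp of exon. The call was lost without both muscle-rich tumours, at 1.32. Adam17 had -0.85 ± 0.32 (adjusted p = 0.0606) and Dpp4 1.57 ± 0.68 (adjusted p = 0.0940). Neither was called, and both were called without sgUhrf1 replicate 2, at -1.10 and 1.95. Adam17 also lies in 3 shared rows, and these do not move together: the row with Gm49586 was lower, at -2.71 ± 0.36 (adjusted p = 0.000755), while the rows with Iah1 and Cpsf3, and with Gm49586 and Ywhaq, had 0.28 ± 0.15 and 0.36 ± 0.21 and were not called.

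Transcription factors known to act on chemokine genes had a tested row in 4 of 13 genes, with 2 higher, 1 lower and 1 not called, against 20.6% and 21.5% of all genes. Irf8, an interferon-regulated factor of myeloid cells, went from 44.7 ± 19.1 to 155 ± 38.9 CPM (SD, n = 3), a log2 fold change of 1.80 ± 0.31 (SE, edgeR adjusted p = 0.00252). Relb, the NF-kB subunit of the alternative pathway, was higher by 1.12 ± 0.20 (adjusted p = 0.00272). Nfkb1, which encodes the p105 precursor of p50, was lower, at -0.79 ± 0.21 (adjusted p = 0.0173). That call was lost without sgNT replicate 2, at -0.70, and without both muscle-rich tumours, at -0.82. Another Nfkb1 row, shared with Manba, had 0.03 ± 0.16 and was not called. Irf2 had 0.61 ± 0.26 (adjusted p = 0.0934). Stat2, shared with Timeless, was higher by 1.16 ± 0.25 (adjusted p = 0.00666). This is 1 of 10 shared rows of the list. With these counted, 8 of 14 rows were higher and 2 lower, against 20.2% and 19.7% of all rows. Rows of Stat6 with Nemp1 went in opposite directions, at -0.94 ± 0.20 and 0.65 ± 0.21 (edgeR adjusted p = 0.00670 and 0.0344).

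Interferon receptors and their signalling genes had a tested row in 6 of 11 genes, 2 of them higher and 0 lower, beside 20.6% and 21.5% of all genes. The kinase gene Tyk2 was higher by 0.86 ± 0.16 (SE, edgeR adjusted p = 0.00385) and the type I receptor chain gene Ifnar1 by 0.70 ± 0.17 (adjusted p = 0.0109). Both calls were lost without the muscle-rich tumours, at 0.88 and 0.74. A shared row of Ifnar1 with Gm7856 went the other way, at -0.89 ± 0.27 (adjusted p = 0.0277), so the Ifnar1 rows differ in direction. Jak2 (0.49 ± 0.19), Ifnar2 (-0.38 ± 0.24), Ifngr1 (-0.21 ± 0.24) and Ptpn2 (-0.25 ± 0.25) were not called. The row of Socs1, an interferon-induced inhibitor of the pathway, shared with CT010583.1, was higher by 2.79 ± 0.38 (adjusted p = 0.000823).

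**Figure D4:**
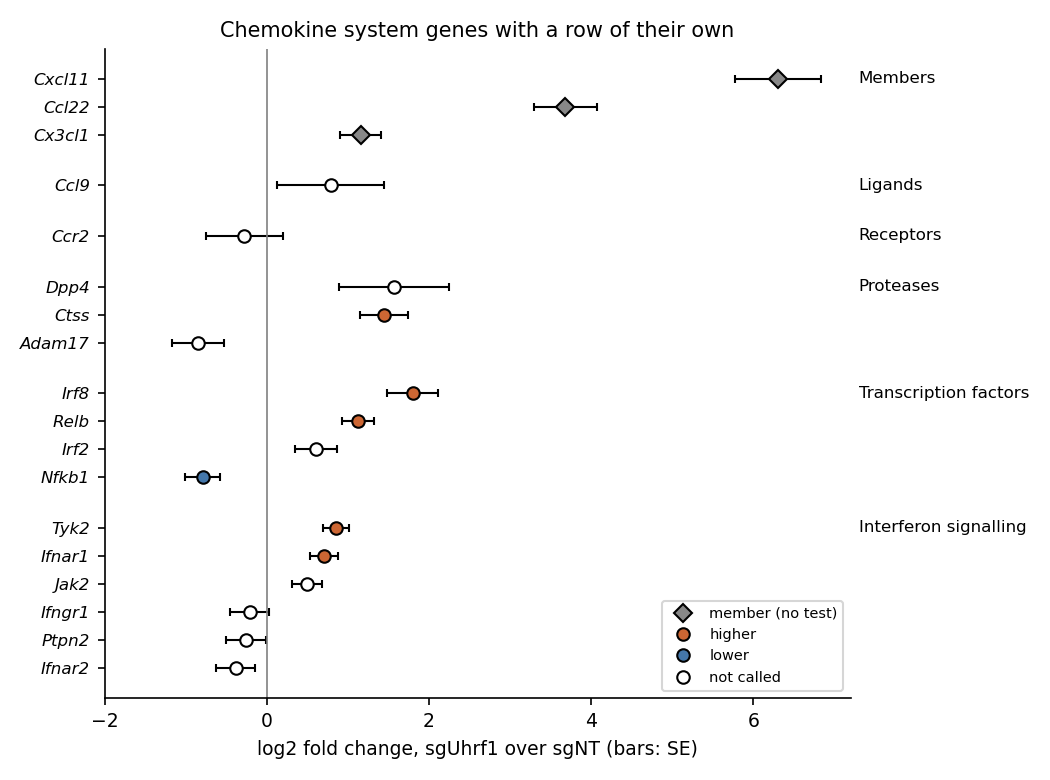
log2 fold changes (sgUhrf1 over sgNT, bars SE) of the 3 chemokine genes (grey diamonds, not tested) and of the genes of the chemokine system named in the text that had a row of their own and were tested (orange higher, blue lower, white not called). The chemokine genes, which were selected on this contrast, span 1.16 to 6.30, and the called genes of the lists drawn lie between -0.79 and 1.80. Called genes of lists not drawn go beyond that range, such as the T cell marker Cd8b1 at 3.76 and the neighbour Uso1 at -2.05.

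The genomic surroundings of the genes were examined next, within 500 kb on each side. Ccl22 and Cx3cl1 lie 20.3 kb apart on chromosome 8, with Ccl17, the other Ccr4 ligand, 28.0 kb beyond Cx3cl1. Cxcl11 lies on chromosome 5, 10.7 kb from Cxcl10. Around Cxcl11, 6 of 29 annotated genes had a row and 4 were tested, 1 of them higher and 1 lower, beside 20.6% and 21.5% of all genes, with a median log2 fold change of 0.26. Art3, which spans Cxcl11, was higher by 1.80 ± 0.58 (SE, edgeR adjusted p = 0.0358). This call was lost in 4 of the 6 fits that left out a tumour, those without sgNT replicate 2 or 3 or sgUhrf1 replicate 1 or 3, with values of 1.16 to 1.96. It was also lost without both muscle-rich tumours, at 1.83, and in limma-voom, at 1.64. Uso1, a gene of vesicle transport, was lower over 226 bp of exon, at -2.05 ± 0.38 (adjusted p = 0.00345). The row of Gm43040 and 172 bp of Uso1 exon was lower too, at -1.12 ± 0.21 (edgeR adjusted p = 0.00350). A shared row with a longer stretch of Uso1 exon, joined with U90926, went the other way, from 186 ± 43.3 to 258 ± 27.3 CPM (SD, n = 3), at 0.47 ± 0.20, and was not called (adjusted p = 0.0944). The groups of Sdad1, between Uso1 and the chemokines, overlap, at 16.7 ± 2.44 and 16.2 ± 3.01 CPM. Tested neighbours of Cxcl11 thus include a higher gene, a lower gene and 2 that were not called.

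Around Ccl22 and Cx3cl1, 7 of 38 annotated genes had a row and 6 were tested, 3 of them higher and 0 lower, with a median of 0.71, beside 20.6% higher and 21.5% lower over all genes. Nlrc5, the transactivator of MHC class I genes, went from 14.6 ± 9.12 to 88.3 ± 22.7 CPM (SD, n = 3), a log2 fold change of 2.60 ± 0.46 (SE, edgeR adjusted p = 0.00261). The long RNA gene 9330175E14Rik next to it was higher by 2.01 ± 0.54 (adjusted p = 0.0169), a call lost without sgNT replicate 2 or 3, sgUhrf1 replicate 2 or both muscle-rich tumours, at 1.73 to 1.91. Ciapin1, a gene of iron-sulfur cluster assembly, was higher by 0.64 ± 0.19 (adjusted p = 0.0278), a call lost in 5 of the 6 fits that left out a tumour, with values of 0.54 to 0.69. It was also lost without both muscle-rich tumours, also at 0.69, without a filter, at 0.57, and in DESeq2, at 0.61. Ccdc102a (0.16 ± 0.23), Adgrg1 (0.77 ± 0.51) and Kifc3 (0.37 ± 0.28) were not called. Of 7 shared rows tested there, 4 were higher, 2 lower and 1 not called, beside 20.2% and 19.7% of all rows. The higher rows were those of Gm15889 and Gm15890 (4.38 ± 0.57, above Ccl22), of Adgrg3 and Adgrg1 (2.33 ± 0.23), of Gm45767, Pllp and Rspry1 (1.63 ± 0.39) and of Dok4 and Polr2c (1.16 ± 0.18). The row of Zfp319 and Cngb1 was among the lower, at -0.99 ± 0.34 (adjusted p = 0.0457). Around Cxcl11, 3 of 6 shared rows were higher and 1 lower, beside the same 20.2% and 19.7%. The log2 fold changes of Ccl22 and Cx3cl1, 3.68 and 1.16, differ although the genes are neighbours.

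**Figure D5:**
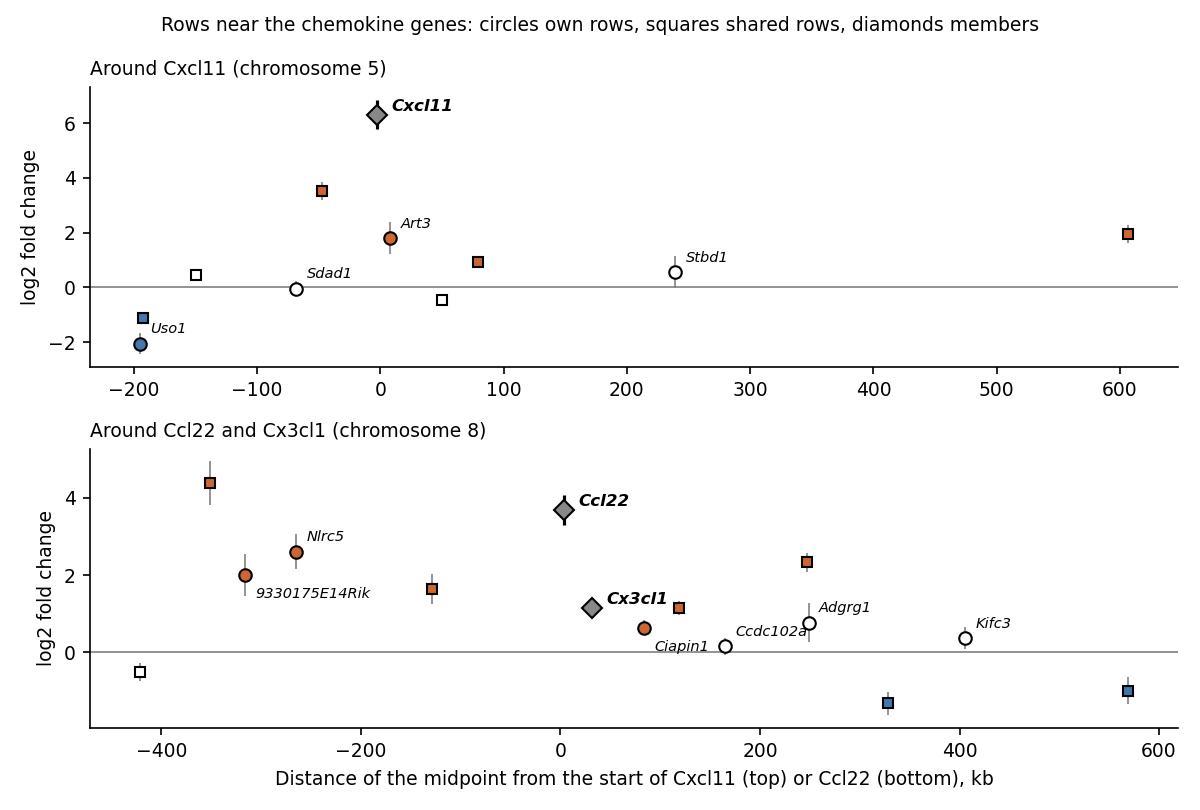
log2 fold changes (sgUhrf1 over sgNT, bars SE) of tested rows near Cxcl11 (top) and near Ccl22 and Cx3cl1 (bottom), by distance of the gene's midpoint in kb from the start of Cxcl11 or Ccl22. Circles are genes with a row of their own, squares rows shared by several genes, grey diamonds the chemokine genes (orange higher, blue lower, white not called); Cxcl11 at 6.30 lies above all other rows of its panel, and rows of both directions lie on each chromosome.

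The genes most like each chemokine gene were found among 4511 genes, as the 3 with the smallest root mean square difference of log2 CPM over the 6 tumours, each gene centred on its sgNT mean. This measure takes in the contrast on which the genes were selected and is a description. It also takes in the tumours within each group, so it favours genes with the same highest tumour. Nearest to Cxcl11 were Tmigd1 (difference 0.48), Gm28001 (0.52) and Slfn4 (0.60), a gene of the interferon-induced schlafen family. Tmigd1 held 1, 0 and 1 counts in sgNT and 108, 98 and 92 in sgUhrf1 tumours, and Slfn4 39, 22 and 16 against 806, 1221 and 1559. In Tmigd1 and Gm28001, as in Cxcl11, the sgNT tumours held few counts or 0. The prior count of 2 in this measure draws such rows together. Their fitted log2 fold changes were 7.15 ± 0.57 and 10.08 ± 0.72 (SE), above the 6.30 of Cxcl11. The rows of Tmigd1 and Gm28001 cover 94 and 90 bp.

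Nearest to Ccl22 were Ceacam10 (0.15), Sp140 (0.30) and C3 (0.31). Ceacam10 rests on few counts, 0, 1 and 0 against 16, 16 and 36. Its rank depends on the prior count, as its fitted log2 fold change, 5.88 ± 0.98 (SE), is above the 3.68 of Ccl22. Sp140, a nuclear body protein of leukocytes, held 32, 27 and 40 against 271, 307 and 519 counts, and the complement gene C3 278, 267 and 379 against 2103, 2342 and 4326. These 3 genes and Ccl22 were all highest in sgUhrf1 replicate 3, which the measure favours. Nearest to Cx3cl1 were Rnf125 (0.11), a ubiquitin ligase of antiviral signalling, Lmo7 (0.13), a protein of epithelial junctions, and Gm20324 (0.14). Rnf125 held 64, 90 and 89 against 162, 243 and 129 counts, and Lmo7, over 59 bp of exon, 211, 274 and 246 against 395, 729 and 366. In counts and on the centred scale, Cx3cl1, Rnf125, Lmo7 and Gm20324 were all highest in sgUhrf1 replicate 2, which the measure again favours.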

How the data were processed

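The submitters' processing notes name fastp, STAR, featureCounts and the GRCm38 build. The deposited unit is the count: whole read pairs per row, not normalized, made per the file headers with featureCounts 2.0.1 over GENCODE M26 exons grouped by gene name, with no strand setting. M26 belongs to GRCm39, so rows were named by the GRCm38 exons (GENCODE M21, small RNA genes set aside) that their intervals cover. This named 13437 rows (40.3% of counts); 4952 rows shared by several genes held 57.9%. The 3 genes and all lists were chosen with earlier results of these data known.

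All rows were fitted with the edgeR 4.0.16 quasi-likelihood test (R 4.3.3), TMM scaling, filterByExpr (minimum count 10, total 15) and Benjamini-Hochberg adjustment over 10503 rows, threshold 0.05. Total counts per tumour set the precision (5462555 to 6375069). Genes named are the 3 chemokine genes, all tested chemokine ligands and receptors, up to 4 called genes per other list, called neighbours within 500 kb and the 3 genes most alike per chemokine gene by log2 CPM (prior count 2, mean at least 1); uncalled list members, shared rows and markers were named after their values were seen. Alternatives were DESeq2 1.42.0, limma-voom (limma 3.58.1), median-of-ratios factors, no filter, minimum count 30, a replicate block, leaving out each tumour or both muscle-rich ones, at least 200 bp of exon, summed rows and shared rows. Marker calls were read from these fits as an addition after seeing the data. Promoters came from RefSeq (GRCm38.p6). Results for some genes are not reported here.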

Additional observations from a re-analysis of the deposited data

How the results depend on the processing

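Over all alternatives the log2 fold changes stayed positive, from 5.84 to 6.70 for Cxcl11, 3.20 to 3.92 for Ccl22 and 0.93 to 1.32 for Cx3cl1. Leaving out each tumour gave 3.20 to 3.91 for Ccl22. Replicate numbers did not pair the tumours (same-number correlations -0.079, -0.021 and 0.050). The replicate block gave 6.28, 3.57 and 1.17 for the chemokine genes, 1838 rows higher and 1807 lower, and 2 neighbours higher, without the calls of Art3 (1.69) and Ciapin1 (0.63); that of Wdfy4 (-1.80) was lost too. Without both muscle-rich tumours 1094 rows (522 genes) were higher and 771 rows (384 genes) lower, with 0 interferon signalling genes, 0 proteases and 1 neighbour higher and 0 transcription factors lower; with fewer tumours fewer calls can pass. With shared rows counted, higher and lower were 4 and 0 of 6 for ligands, 1 and 0 of 5 for receptors and 8 and 2 of 14 for transcription factors. They were 4 and 1 of 11 for interferon signalling, 1 and 2 of 8 for proteases and 11 and 4 of 23 for neighbours. Over all rows 20.2% were higher and 19.7% lower. Without a filter 2 proteases were higher, with at least 200 bp of exon 0, and with the stricter filter 2 neighbours. Leaving out each tumour gave 1259 to 1908 rows and 613 to 902 genes lower, 0 to 1 receptors higher, 1 to 2 proteases higher and 0 to 1 lower, 1 to 3 neighbours higher and 0 to 1 transcription factors lower. Of the other values of single genes, 330 kept their side of the threshold, 25 lost it and 5 gained it, and none reversed a call. Except where named, the cause was not tested. Depth limits Cxcl11 in sgNT tumours, at 3 to 8 counts, and genes below the filter.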
